A study of Homo sapiens and Mus musculus with 22 samples.

Results

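GDF15, the gene of growth differentiation factor 15, and its mouse counterpart Gdf15 were followed through the RNA-seq values of a study of H3K9 methylation, a mark of silent chromatin. They were matched by symbol and are 2 of the 49386 symbols listed, 25537 human and 23849 mouse. The gene was chosen by its high RNA with BIX-01294 in these same values, so its BIX levels are given as a description with no test. The 14 RNA values in 3 sets came from U2OS, which is a line of human osteosarcoma, and from the mouse fibroblast line L929.

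The first set held U2OS labelled SETDB1 KO1, SETDB1 KO2 and WT, all mock treated, with 2 libraries each. Both knockouts carry the same genotype label, SETDB1 KO, and the labels do not say whether each is 1 clone. A further set held U2OS labelled ATG5 KD with BIX, ATG5 KD mock, Vector with BIX and Vector mock, with 1 value each that stands for 2 replicates. The last set held L929 labelled cGAS KO with BIX, cGAS KO mock, cGAS WT with BIX and cGAS WT mock, with 1 library each. BIX is BIX-01294, a small-molecule inhibitor of the H3K9 methyltransferases EHMT2 (G9a) and EHMT1 (GLP), given at 10 µM for 12 hours. SETDB1 is another H3K9 methyltransferase, ATG5 is needed for the formation of autophagosomes, and cGAS is a sensor of cytosolic DNA. The labels do not say what the mock treatment contained or how the knockdown and the knockouts were made.

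GDF15 is a secreted cytokine, a distant relative of the TGF-beta superfamily. It is made as a proprotein, cut by furin-type proteases and released as a dimer. Its receptor GFRAL, which signals with the co-receptor RET, is found mainly in neurons of the hindbrain, where the cytokine lowers food intake and gives aversion. Most cells hold little GDF15 RNA at rest and raise it under stress. The integrated stress response (phosphorylation of eIF2alpha, translation of ATF4, then CHOP, the product of DDIT3) and EGR1 are among its described activators.

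Human GDF15 lies on chromosome 19. Its promoter is shown because GDF15 and PPP1R15A, the gene of the eIF2alpha phosphatase subunit GADD34, were the genes with the highest BIX differences shared by all backgrounds, and PPP1R15A lies on the same chromosome. Each line gives the 250 bases before the annotated start on the plus strand of GRCh38.p14, from RefSeq, at chr19:18385908-18386157 for GDF15 and chr19:48872171-48872420 for PPP1R15A. Capitals mark TATA boxes (TATAAA), GC boxes (GGGCGG) and CRE cores (TGACG), on either strand.
GDF15 promoter: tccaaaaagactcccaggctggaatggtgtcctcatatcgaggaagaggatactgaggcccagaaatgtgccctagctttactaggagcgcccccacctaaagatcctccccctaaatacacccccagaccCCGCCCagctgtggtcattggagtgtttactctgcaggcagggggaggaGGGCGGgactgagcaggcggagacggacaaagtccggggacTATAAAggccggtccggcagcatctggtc
PPP1R15A promoter: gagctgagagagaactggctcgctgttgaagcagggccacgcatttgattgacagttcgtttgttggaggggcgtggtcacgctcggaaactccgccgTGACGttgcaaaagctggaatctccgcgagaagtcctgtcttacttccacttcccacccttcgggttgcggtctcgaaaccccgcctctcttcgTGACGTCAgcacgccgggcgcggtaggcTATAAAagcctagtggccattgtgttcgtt
The GDF15 window held 1 TATA box, whose first base lay at -29 from the start, and 2 GC boxes, with first bases at -70 on the plus strand and -119 on the minus strand. The PPP1R15A window held 1 TATA box at -30 and 3 matches to the CRE core, at -152 and -58 on the plus strand and at -55 on the minus strand, of which the matches at -58 and -55 overlap. TATAAA was found in 11.1% of 27305 windows of this length, GGGCGG in 42.3% and TGACG in 21.7%. Neither the CRE core nor the C/EBP-ATF element TGATGNAAN (3.18% of windows), the C/EBP motif TGCAAT (7.21%), the AP-1 motif TGANTCA (6.60%), the E-box CACGTG (6.49%) or the antioxidant element TGACNNNGC (11.0%) had a match in the GDF15 window, searched on both strands. These are matches of letters, not measured binding sites.

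In U2OS without BIX, GDF15 RNA was low, and with BIX it was among the more abundant RNAs. Levels are in FPKM, fragments per kilobase of transcript scaled to the mapped fragments of the library, so they can be set beside other genes of the same table, and the tables were made separately. The labelled ATG5 KD cells had 97.8 FPKM with BIX and 5.68 FPKM in mock. The Vector cells had 130.9 FPKM with BIX and 6.08 FPKM in mock. Among the genes at 1 FPKM or more, counted from the most abundant, GDF15 stood at rank 944 of 11971 with BIX in the labelled KD, against 8483 of 12204 in its mock value. In Vector it stood at rank 562 of 11908 with BIX, against 8352 of 12274 in mock. Over the 8 mock U2OS values of the SETDB1 and ATG5 sets, GDF15 lay between 3.97 and 8.39 FPKM with a median of 5.88, so each BIX value was above every mock value.

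In L929 the gene was already well expressed in mock and was among the top RNAs with BIX. The labelled cGAS KO cells had 1006 FPKM of Gdf15 with BIX and 47.5 FPKM in mock. The cGAS WT cells had 1167 FPKM with BIX and 62.7 FPKM in mock. Gdf15 stood at rank 56 of 10931 genes with BIX in the labelled KO, against 1982 of 10713 in mock. In cGAS WT it stood at rank 61 of 10752 with BIX, against 1513 of 10554 in mock. Gdf15 thus held 0.193% of the summed FPKM with BIX in the labelled KO and 0.209% in WT.

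**Figure D1:**
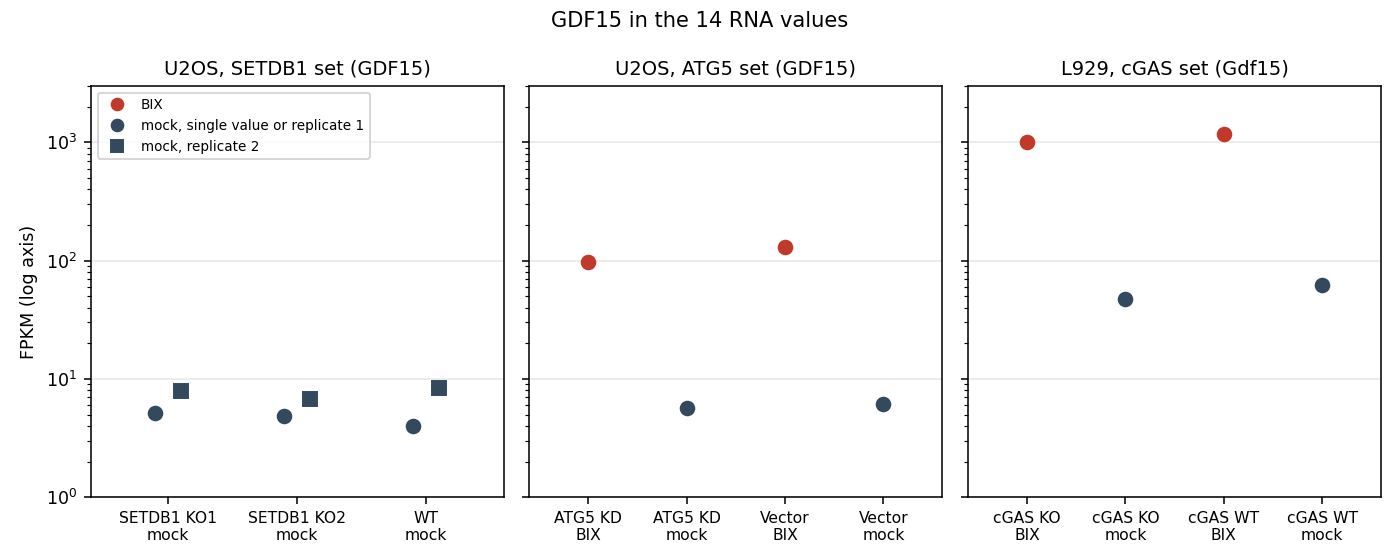
GDF15 (U2OS) and Gdf15 (L929) in FPKM on a log axis in each of the 14 RNA values, by set, with BIX values in red and mock values in dark blue. Circles are single values or replicate 1 and squares replicate 2. The BIX values sit at 97.8 to 1167 FPKM and the mock values at 3.97 to 62.7 FPKM, with every BIX value above the mock values of its own set, and the squares above the circles in the SETDB1 set.

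The checks on the samples bear on these levels as follows. SETDB1 RNA was lower in the knockouts (5.90 and 7.03 FPKM in KO1, 6.89 and 7.35 in KO2, 9.98 and 9.32 in WT, limma difference of the mean -0.45, adjusted p = 0.043). ATG5 RNA was 13.4 FPKM in the labelled KD and 12.3 in Vector with BIX, and 10.1 and 11.3 in mock, so the RNA does not show a knockdown. Mb21d1, the cGAS gene, was at 4.41 FPKM in the labelled KO and 3.47 in WT with BIX, and at 1.19 and 2.82 in mock. Both genotypes are therefore given as labelled. Of 8 mesenchymal markers, 7 were at 1 FPKM or more in every value of the SETDB1 and of the L929 set, with COL1A2 under 1 in U2OS and Thy1 listed at 0 in L929. In the ATG5 set it was 6 of the 7 that could be read alone. The list's median BIX difference was -0.45 in the labelled KD, -0.52 in Vector, -0.41 in the labelled cGAS KO and -0.42 in cGAS WT, on the log2(FPKM + 1) scale, and its part in the GDF15 values was not tested. Of the markers of epithelial, blood, endothelial and liver cells, CDH1, PTPRC, CDH5 and ALB were under 1 FPKM in all 14 values. EPCAM was above 1 FPKM in every U2OS value, at 1.83 to 3.68, and CD68 in the SETDB1 set, at 1.65 to 3.02. PECAM1 was under 1 FPKM except in the labelled cGAS KO with BIX, at 1.01. The summed level of the list was at most 6.01 FPKM in U2OS. In L929 that sum was between 5.20 and 81.1 FPKM, nearly all of it Cd68, at 29.6 with BIX and 5.11 in mock in the labelled KO and at 80.3 and 41.2 in WT. Cd68 thus moved with BIX and with genotype beside Gdf15, and its part in the Gdf15 values was not tested. In bulk RNA, more expressing cells and more RNA per cell cannot be told apart. Depth is not given in FPKM. Steps between low values put the cGAS WT library with BIX at 0.745 times the reads of its mock library, and the labelled KO library with BIX at 1.01 times its mock library, while the ATG5 set gave no clear steps.

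With BIX, GDF15 RNA was 17.2 to 21.5 times its mock level, a description since this contrast chose the gene. The FPKM ratio was 17.2 in the labelled ATG5 KD and 21.5 in Vector. It was 21.2 in the labelled cGAS KO and 18.6 in cGAS WT. On the scale of log2(FPKM + 1), used for all differences here, these were 3.89 and 4.22 in U2OS, and in L929 4.38 in the labelled KO and 4.20 in WT. The scale understates changes of low genes.

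Few genes lay above it. GDF15 ranked 19 of 12602 genes in the labelled KD, where 8.02% of genes were at least 2-fold higher with BIX, and 5 of 12566 in Vector, where 6.34% were. Gdf15 ranked 10 of 11376 in the labelled cGAS KO, where 13% were at least 2-fold higher, and 11 of 11077 in cGAS WT, where 7.4% were. Of 7450 genes that could be compared in all 4 backgrounds, 131 (1.76%) were at least 2-fold higher with BIX in each and 34 at least 2-fold lower in each. Ordered by the lowest of the 4 differences, GDF15 held place 2 at 3.89, behind PPP1R15A at 4.16. The next were EGR1 at 3.37, then MAFF, a small MAF transcription factor, and FOS, an AP-1 subunit. Among these 5, GDF15 is the one that encodes a secreted protein.

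The genes ranked next to GDF15 differed by background. In the labelled KD they were GADD45A and ATF3 just above and MAFF and TNFAIP3, an inhibitor of NF-kappaB signalling, just below. In Vector they were MT1X, a metallothionein, and CXCL8, a neutrophil chemokine, above and PPP1R15A and GEM below. In the labelled cGAS KO they were Gadd45g and Ppp1r15a above and Egr1 and Ampd1 below. In cGAS WT they were Plk2 and Ppp1r15a above and the interferon-stimulated genes Isg15 and Ifit3 below, at 4.14 each.

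**Figure D2:**
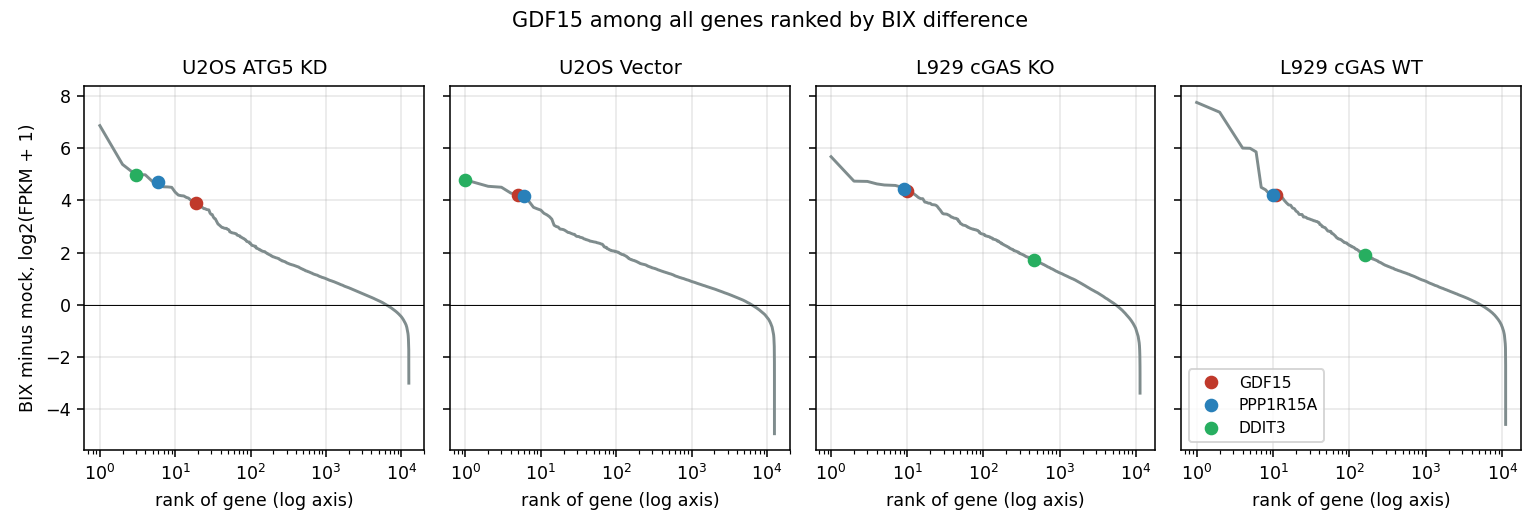
All genes of each background ranked by BIX minus mock on the log2(FPKM + 1) scale (grey line, rank on a log axis), with GDF15, PPP1R15A and DDIT3 marked. GDF15 sits at ranks 19, 5, 10 and 11 from left to right, next to PPP1R15A in all panels but that of the labelled ATG5 KD, while DDIT3 is near the top in U2OS and lower in L929.

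Genotype went with much smaller differences in GDF15 than BIX did, and each rests on 1 value a group with no test. The labelled ATG5 KD had 0.747 times the Vector level with BIX (difference -0.42) and 0.934 times in mock (-0.08). Among all genes, 1.85% were at least 2-fold apart between these with BIX and 0.953% in mock, and GDF15 was not among them. The labelled cGAS KO had 0.863 times the WT level of Gdf15 with BIX (-0.21) and 0.758 times in mock (-0.39), beside 11.7% and 7.84% of genes at least 2-fold apart. The BIX difference of the labelled KD minus that of Vector was -0.33, and 14.9% of 12879 genes had a larger gap. The BIX difference of the labelled cGAS KO minus that of WT was 0.18, and 68.5% of 11709 genes had a larger gap.

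In mock cells the labelled SETDB1 knockouts had no detectable difference from WT in GDF15. The KO1 libraries held 5.20 and 7.93 FPKM, the KO2 libraries 4.84 and 6.79, and the WT libraries 3.97 and 8.39, in the order of replicate 1 and 2. The groups overlap, and the WT pair spans both knockout pairs. Means were 6.56 ± 1.93 FPKM in KO1, 5.81 ± 1.38 in KO2 and 6.18 ± 3.12 in WT (SD, n = 2 libraries each), so no neighbours in this order differ beyond their spread. With limma, over 12611 genes, the mean of both knockouts differed from WT by 0.05 (SE 0.227, 95% interval -0.44 to 0.55, Benjamini-Hochberg adjusted p = 0.968). The interval runs from 0.736-fold to 1.46-fold on the FPKM + 1 scale. Limma draws each gene's variance toward that of other genes at its level, so the interval does not rest on GDF15 alone. The SD of GDF15 on the log2(FPKM + 1) scale was 0.372 in KO1, 0.293 in KO2 and 0.648 in WT. An interval from that spread alone was not computed, and the one given is not read as excluding a 2-fold difference. In the same fit 407 genes (3.23%) passed an adjusted p of 0.05.

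The separate knockouts gave the same picture for GDF15. KO1 differed from WT by 0.12 (SE 0.262, limma adjusted p = 0.961) and KO2 by -0.02 (SE 0.262, limma adjusted p = 0.997), where 2.43% and 2.44% of genes passed. KO1 and KO2 differed by 0.14 (95% interval -0.43 to 0.71, limma adjusted p = 1.00). No gene passed in that contrast with limma, and 205 had an unadjusted p under 0.05. These contrasts share libraries. The estimate for the mean turned to -0.08 without KO1 replicate 2, to -0.05 without KO2 replicate 2 and to -0.41 without WT replicate 1, and reached 0.51 without WT replicate 2 (limma adjusted p = 0.441), so single libraries set its sign. The labels do not say whether the 2 libraries of a group are separate cultures. The p-values therefore rest on the spread between these libraries, for GDF15 drawn toward that of other genes, and not on a known spread between cultures.

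GDF15 differed more between replicate numbers than between genotypes. The library numbered 2 held 1.52 times the FPKM of the library numbered 1 in KO1, 1.40 times in KO2 and 2.11 times in WT. Averaged over the 3 groups, replicate 2 minus replicate 1 was 0.62 for GDF15, rank 17 of 12611 genes, against a median of 0.02 for all genes. The stress gene lists described below had smaller medians than GDF15 here. They were 0.01 over 25 regulators, with 15 above 0, and -0.08 over 27 ATF4 and CHOP targets, with 9 above 0. Over 11 secreted factors the median was -0.08, with 5 above 0. What the replicate numbers stand for is not given in the labels.

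**Figure D3:**
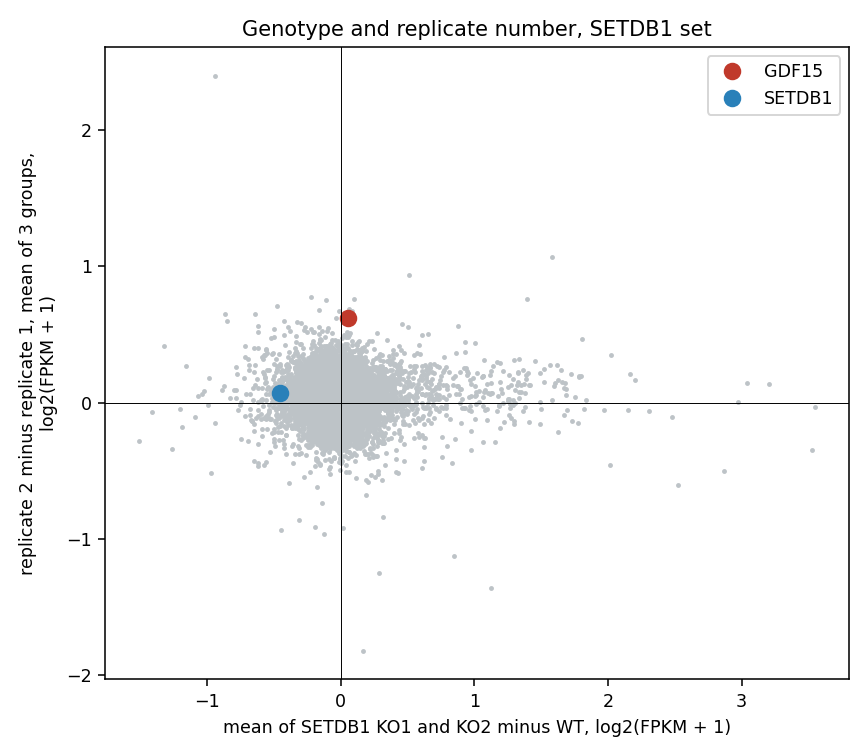
The 12611 genes of the SETDB1 set (grey), with the mean knockout minus WT difference on the x axis and replicate 2 minus replicate 1, averaged over 3 groups, on the y axis, both on the log2(FPKM + 1) scale. GDF15 (red) lies at 0.05 on the x axis and 0.62 on the y axis, and SETDB1 (blue) at -0.45 on the x axis.

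A list of transcriptional and stress regulators was higher with BIX as a group in U2OS, and fewer of its members were in L929. The gene lists were written with earlier results of these data known, so their counts are a description. Of 26 kinases, phosphatase subunits and transcription factors listed, 11 of 25 measured were at least 2-fold higher in the labelled ATG5 KD (8.02% of all genes) and 12 of 25 in Vector (6.34%), with none at least 2-fold lower, beside 3.68% and 4.28% of all genes lower. In the labelled cGAS KO it was 8 of 23 higher and 1 lower, beside 13% of all genes higher and 9.87% lower. In cGAS WT it was 7 of 24 higher and 1 lower, beside 7.4% and 6.17%. Their medians were 0.87, 0.85, 0.51 and 0.63 in that order of backgrounds, beside 0.01, 0.00, -0.04 and -0.04 for all genes. The members at least 2-fold higher in all 4 backgrounds were DDIT3, EGR1, FOSL1, JUN and PPP1R15A, 5 of the 22 that could be compared in all 4.

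Of PPP1R15A and DDIT3 in the eIF2alpha branch, DDIT3 had the larger BIX difference in U2OS and PPP1R15A in L929. PPP1R15A, the feedback phosphatase subunit, was at 459 FPKM with BIX and 16.5 in mock in the labelled KD, and at 268 and 14.1 in Vector. In L929 Ppp1r15a was at 429 with BIX and 18.8 in mock in the labelled KO, and at 325 and 16.5 in WT. PPP1R15A thus had similar mock levels in both lines, in tables that were made separately, while GDF15 was higher in L929 mock than in U2OS mock. DDIT3, which encodes the factor CHOP, was at 327 with BIX and 9.36 in mock in the labelled KD and at 260 and 8.45 in Vector. In L929 Ddit3 was at 186 with BIX and 55.9 in mock in the labelled KO and at 225 and 59.5 in WT, so its difference was 1.71 and 1.90 there, against 4.99 and 4.79 in the U2OS backgrounds. ATF4, the factor whose translation is raised by eIF2alpha phosphorylation, had differences of 1.39 and 1.21 in the labelled KD and Vector and 1.03 and 0.79 in the labelled cGAS KO and WT. Its protein was not measured.

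Among the eIF2alpha kinases, EIF2AK3 (PERK, activated by unfolded protein in the endoplasmic reticulum) was at least 2-fold higher with BIX in both U2OS backgrounds, at 1.14 and 1.16, and stood at 0.81 in the labelled cGAS KO and -0.18 in cGAS WT. EIF2AK1 (HRI) lay between -0.07 and 0.01 in all 4 backgrounds and EIF2AK4 (GCN2, a sensor of uncharged tRNA) between -0.52 and 0.07. PPP1R15B, the constitutive partner of the same phosphatase, was at 1.47 and 1.20 in U2OS and 0.73 and 0.63 in L929.

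Of the immediate early factors, EGR1 was at 740 FPKM with BIX and 36.2 in mock in the labelled KD and at 432 and 40.6 in Vector. Egr1 was at 110 with BIX in both L929 genotypes, against 4.47 in mock in the labelled KO and 9.81 in WT. JUN differed by 1.96 and 1.73 in U2OS and by 2.96 and 2.68 in L929, and FOSL1, another AP-1 subunit, by 3.10, 2.58, 1.81 and 1.64. ATF3, a stress-induced repressor and activator, separated the lines. It was at 115 FPKM with BIX and 6.84 in mock in the labelled KD and at 60.8 and 3.63 in Vector, and under 1 FPKM in all L929 values.

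SP1, a factor that binds GC boxes, lay between 0.13 and 0.44 in all 4 backgrounds. KLF4 was under 1 FPKM in U2OS and at 0.62 and 1.27 in L929. NFKB1 was at 2.18 and 1.93 in U2OS, against 0.46 and 0.56 in L929. The factors of lysosome and autophagy genes were at 0.87 and 0.64 for TFEB in U2OS and -0.40 and -1.28 in L929, and at 0.93, 0.44, 0.13 and 0.35 for TFE3. No regulator of 25 tested passed the limma test in the mean of the SETDB1 knockouts, beside 3.23% of all genes. Their median was 0.03, beside -0.01 for all genes.

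**Figure D4:**
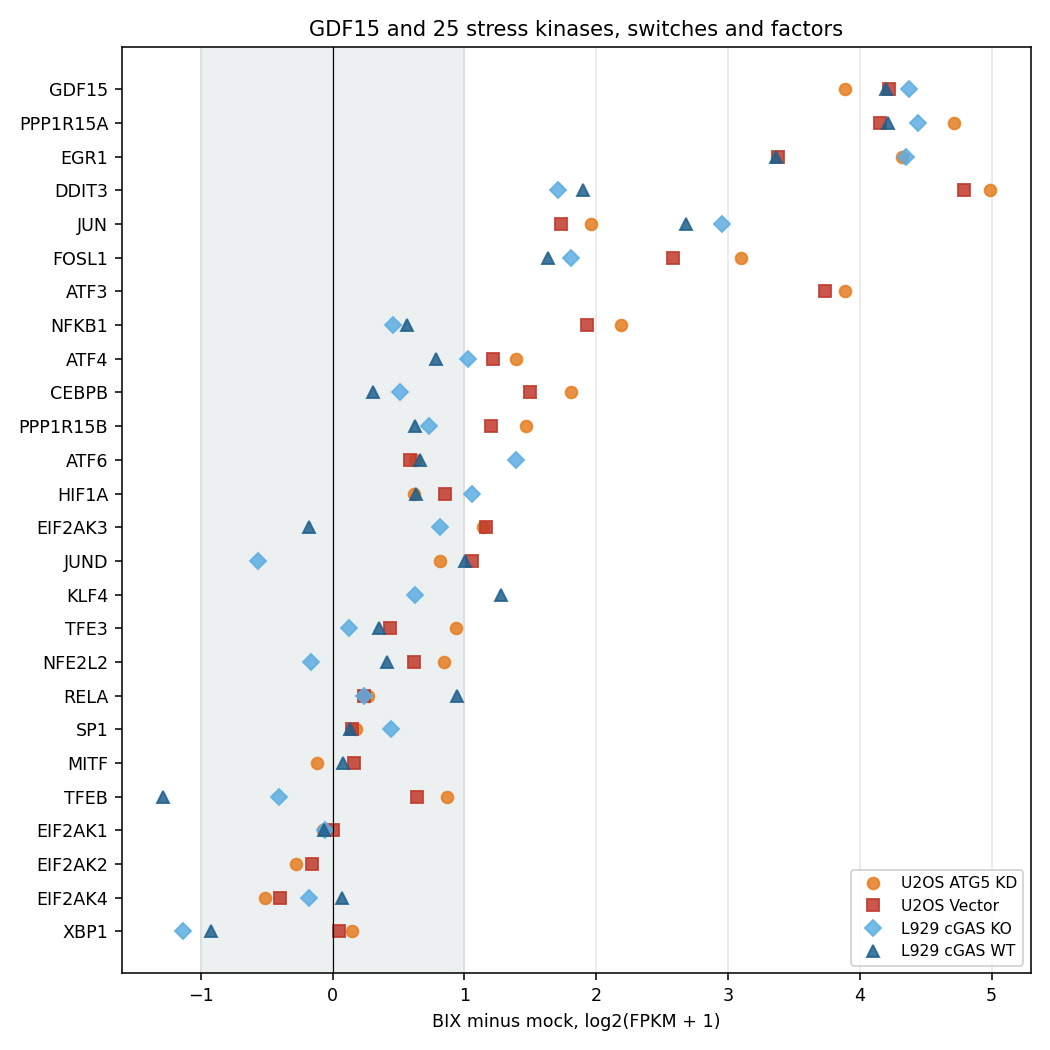
BIX minus mock on the log2(FPKM + 1) scale for GDF15 and 25 of the regulators, ordered by their mean, with 1 symbol a background and the grey band marking under 2-fold. A symbol is missing where a gene was under 1 FPKM in both values or could not be read alone. GDF15 and PPP1R15A have all 4 symbols close together near 4, while DDIT3 and NFKB1 are split between U2OS and L929 and ATF3 has symbols for U2OS alone.

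ATF4 and CHOP targets gave different counts in U2OS and L929, a difference that was not tested. Of 30 ATF4 and CHOP targets, 7 of 24 measured were at least 2-fold higher with BIX and 1 lower in the labelled KD, with 8 higher and 1 lower in Vector, beside 8.02% and 6.34% of all genes higher and 3.68% and 4.28% lower. In the labelled cGAS KO none of 29 was at least 2-fold higher and 3 were lower, and in cGAS WT 2 were higher and 1 lower, beside 13% and 7.4% of all genes higher and 9.87% and 6.17% lower. The 3 lower in the labelled KO and the 2 higher in WT are near the background. The medians were 0.37 and 0.47 in U2OS and -0.38 and -0.17 in L929. None of the 24 listed targets that could be compared in all 4 backgrounds was at least 2-fold higher in each, beside 1.76% of all genes. DDIT3 and PPP1R15A, at least 2-fold higher in all 4, were listed with the regulators and are not counted here. SLC3A2, the heavy chain of amino acid transporters, was at 414 FPKM with BIX and 84.9 in mock in the labelled KD and at 394 and 77.5 in Vector, and its differences in L929 were 0.07 and 0.79. CEBPG, a partner of ATF4, had differences of 1.68, 1.57, 0.99 and 1.12. PCK2, a mitochondrial enzyme of phosphoenolpyruvate synthesis, was lower in L929, at -1.62 and -1.69, and at -0.51 and -0.42 in U2OS. In the SETDB1 set DDIT4, a stress-induced inhibitor of mTORC1, was the 1 of 27 targets that passed, lower in the knockouts by limma (difference -0.62, adjusted p = 0.0066), beside 0.777% of all genes.

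Other stress-secreted factors were also more often at least 2-fold higher than lower with BIX. Of 20 listed, 11 of 15 measured in the labelled KD and 9 of 14 in Vector were at least 2-fold higher. In each 1 was lower, beside 8.02% and 6.34% of all genes higher and 3.68% and 4.28% lower. In L929 it was 7 of 15 in the labelled KO and 7 of 14 in WT, with none lower. Of all genes there, 13% and 7.4% were higher and 9.87% and 6.17% lower. The medians were 1.22, 1.09, 0.77 and 1.01. LIF, a cytokine of the IL-6 family, was higher in all 4 backgrounds, at 118 FPKM with BIX and 23.6 in mock in the labelled KD, 80.4 and 20.8 in Vector, 10.5 and 2.40 in the labelled cGAS KO, and 17.5 and 3.25 in WT. HBEGF, a ligand of the EGF receptor, and IL11 were the other 2 at least 2-fold higher in all 4, with differences of 1.41 to 2.64 and 1.27 to 2.66. CXCL8 had larger differences than GDF15 in both U2OS backgrounds, 4.98 and 4.28, with mock levels of 1.19 and 1.11 FPKM. In cGAS WT Cxcl2 had a larger difference than Gdf15, 4.41, at 227 FPKM with BIX and 9.75 in mock. In the labelled cGAS KO the Cxcl2 difference was 2.76, smaller than that of Gdf15. None of 11 secreted factors passed in the SETDB1 knockouts, beside 3.23% of all genes.

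**Figure D5:**
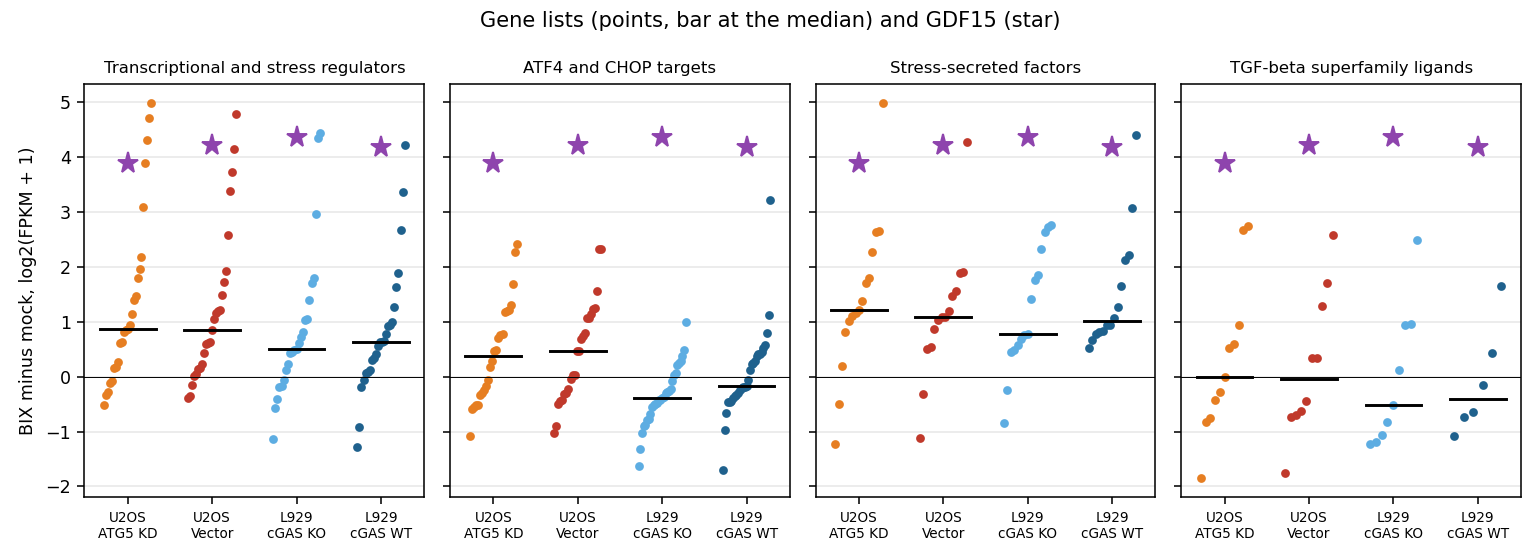
BIX minus mock on the log2(FPKM + 1) scale for the measured members of 4 gene lists (points, sorted from left to right within a background, bar at the median) and for GDF15 (star), in the 4 backgrounds. The star lies above all but a few points in every panel, and the medians of ATF4 and CHOP targets are above 0 in U2OS and below 0 in L929.

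Some measured relatives of GDF15 in the TGF-beta superfamily were at least 2-fold higher with BIX and some lower. Of 32 ligands, 2 of 11 measured were at least 2-fold higher with BIX in the labelled KD and 3 of 10 in Vector, with 1 lower in each, beside 8.02% and 6.34% of all genes higher and 3.68% and 4.28% lower. In the labelled cGAS KO 1 of 9 was higher and 3 lower, and in cGAS WT 1 of 6 was higher and 1 lower, beside 13% and 7.4% of all genes higher and 9.87% and 6.17% lower. The 1 of 9 higher in the labelled KO is near the background, and the counts of 1 are single genes. INHBA, the activin A subunit, was at 106 FPKM with BIX and 15.0 in mock in the labelled KD and at 102 and 16.1 in Vector, and under 1 FPKM in L929. BMP2 was also higher in U2OS, by 2.68 and 1.70. BMP4 was lower there, at 14.9 with BIX and 56.4 in mock in the labelled KD and at 19.3 and 67.6 in Vector. Tgfb2 was higher in L929, by 2.49 and 1.65, with mock levels under 0.1 FPKM.

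Set beside the other superfamily and stress-secreted ligands that could be read alone, GDF15 went up the order with BIX. With BIX it held place 3 beside 47 others in the labelled KD, after LIF and INHBA, and place 1 in Vector, against place 14 and place 13 in mock. In L929 it held place 1 beside 51 others with BIX in the labelled KO and place 2 in WT, after Cxcl1 at 1753 FPKM, and at place 5 in both mock values. Within the superfamily Gdf15 was ahead of all 32 others in all 4 L929 values. In mock it was nearly level with Tgfb1 in cGAS WT, at 62.73 and 62.72 FPKM. In the labelled KO mock value Gdf15 was at 47.5 FPKM and Tgfb1 at 39.7. In the mock libraries of the SETDB1 set GDF15 held places 11 to 19 beside 50 others, where TGFB1 and BMP4 led. TGFB1 was at 79.2 to 96.0 FPKM there. In the ATG5 set TGFB1 could not be read alone, so the places of GDF15 in that set leave it out.

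The receptor genes were near 0 in both lines. GFRAL and RET were under 1 FPKM in all 14 values, with GFRAL at most at 0.275. FURIN, the protease of the furin type, was at 56.7 FPKM with BIX and 46.7 in mock in the labelled KD and at 51.1 and 57.5 in Vector. In L929 Furin was at 68.2 with BIX and 31.2 in mock in the labelled KO and at 73.6 and 42.6 in WT. Mmp14, a membrane protease reported to cut GFRAL from the cell surface, was lower with BIX in L929, at 39.6 and 92.0 FPKM with BIX and in mock in the labelled KO and at 37.1 and 90.3 in WT. PCSK7, another proprotein convertase, differed by -0.02 and -0.35 in U2OS and by -0.34 and -0.90 in L929. None of these passed in the SETDB1 knockouts, of 4 tested, beside 3.23% of all genes.

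The genes whose levels followed GDF15 most closely were ranked by Pearson's r of log2(FPKM + 1), centred within each table, over the 14 values, among 10202 genes. The first 10 were SNRNP48, PLEKHF2, TAPT1, TWISTNB, CHKA, ZC3H12C, JUNB, PPP1R15A, DYRK3 and CSNK1G3, with r between 0.98 and 0.99. The values share libraries and fall apart by BIX, and 449 genes had r of 0.9 or more. Likeness is of the shape, so the size of the difference can be smaller than that of GDF15, as for SNRNP48, or about as large, as for PPP1R15A. SNRNP48, a protein of the minor spliceosome, was at 15.1 FPKM with BIX and 5.68 in mock in the labelled KD and at 49.2 and 14.3 in the labelled cGAS KO. CHKA, choline kinase alpha, had BIX differences between 2.11 and 2.72, and JUNB, an AP-1 subunit, between 2.42 and 3.05. EGR1 was at place 11 and JUN at place 20. With Spearman's rho 1 of the 10 was kept, and with the 8 values of the ATG5 and cGAS sets 5 were.

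The genes beside GDF15 on the human chromosome had smaller BIX differences. In the order of the RefSeq annotation PGPEP1, a peptidase gene, is next on 1 side and LRRC25 on the other. PGPEP1 was at 5.58 FPKM with BIX and 2.69 in mock in the labelled KD and at 7.01 and 2.77 in Vector, differences of 0.84 and 1.09. In L929 Pgpep1 differed by -0.36 and -0.10. LRRC25 was under 1 FPKM in all values. SSBP4, further along, differed by 0.07 and 0.22 in U2OS and by -0.91 and -0.59 in L929. LSM4, on the side of PGPEP1, lay between -0.35 and 0.16. ELL, an elongation factor gene, was about 2-fold higher with BIX in L929, by 0.98 and 1.03. In the ATG5 table it is joined with ISYNA1 in 1 row that differed by 1.73 and 1.39. MIR3189, a microRNA gene within GDF15, was listed at 0 in all 10 U2OS values, from libraries of polyadenylated RNA that are not made to hold mature microRNAs. None of the measured neighbours passed in the SETDB1 knockouts, beside 3.23% of all genes.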

How the data were processed

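RNA was poly(A)-selected and sequenced as paired ends, per the labels' protocols. FastQC, cutadapt, TopHat2 and Cufflinks with hg19 or mm10 are named in the submitters' processing notes, without versions. The deposited values are FPKM per locus, normalized by the authors per transcript length and mapped fragments, and no counts were used. In the ATG5 set each deposited value stands for 2 replicates, per the labels. The treatment note describes BIX for all cells while titles say mock, and titles were followed. The 8 ChIP and input samples were not analysed here.

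Symbols listed more than once kept the entry with the highest mean, short RNA rows were left out, and rows joining several genes were not used for list members. The SETDB1 set was tested with limma 3.58.1 (R 4.3.3) on log2(FPKM + 1) with a variance trend, two-sided, keeping genes that reached 1 FPKM in 2 or more of 6 libraries. Benjamini-Hochberg adjustment ran over all genes, and the script was tested on simulated data. Single values were compared as log2 differences for genes at 1 FPKM or more in 1 of both values, with no test. The number of libraries limits the precision, and no depth is known. The alternatives were a pseudocount of 0.1, FPKM minima of 5 or none, quantile normalization, median centring, summed entries, a replicate block and leaving out each library.

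GDF15 and the gene lists were chosen with earlier results of these data known. Named genes were GDF15, the 10 most like it, the 2 ranked on each side in each BIX comparison, neighbours on the chromosome, the regulators, the receptor and processing genes, the study's targets, and up to 4 members of each other list at least 2-fold apart in 1 line by mean difference. 1 regulator and the genes of 1 list are not reported here. FOS, TGFB1, Cxcl1, Cxcl2, TRIB3 and SESN2 were named after their values were seen.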

Additional observations from a re-analysis of the deposited data

Results flagged for a closer look

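TRIB3, a pseudokinase and target of CHOP, SESN2, a stress-induced regulator of mTORC1, and DDIT4 had BIX differences of opposite sign in U2OS and L929. In U2OS each reached 2-fold in both backgrounds, and in L929 TRIB3 did so in the labelled cGAS KO, while the other L929 values stayed under 2-fold. The difference between the lines was not tested for any of them, since each background has 1 value with BIX and 1 in mock. TRIB3 differed on the log2(FPKM + 1) scale by 2.42 in the labelled ATG5 KD and 2.33 in Vector, against -1.31 in the labelled cGAS KO and -0.38 in cGAS WT. SESN2 differed by 1.31 and 1.07 in U2OS, against -0.42 and -0.34 in L929. DDIT4 differed by -1.08 and -1.03 in U2OS, against 0.49 and 0.42 in L929.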

How the results depend on the processing

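The BIX and genotype differences of GDF15 kept their direction and size class under a pseudocount of 0.1, median centring, a minimum of 5 FPKM and summed entries. In the SETDB1 set GDF15 passed under no alternative, and its sign rests on single libraries. Leaving out 1 library gave -0.41 to 0.51 for the mean of the knockouts (-0.41, -0.08 and -0.05 without WT replicate 1, KO1 replicate 2 and KO2 replicate 2), -0.34 to 0.58 for KO1 (-0.34 and -0.14 without WT replicate 1 and KO1 replicate 2), -0.48 to 0.44 for KO2 (0.44 and 0.19 without WT replicate 2 and KO2 replicate 1) and -0.12 to 0.40 for KO1 against KO2 (-0.12 and -0.07 without KO1 replicate 2 and KO2 replicate 1). The cause was not tested. With the replicate number as a block the mean was 0.05 (SE 0.118, limma adjusted p = 0.895) and 508 genes passed for the mean. Deviations of same-numbered libraries correlated at 0.202 for KO1 with KO2, 0.375 for KO1 with WT and 0.00401 for KO2 with WT. The labels give no pairing beyond the number, and what the libraries share was not tested.

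Counts over all genes moved more. With a minimum of 5 FPKM 201 genes passed for the mean, 150 for KO1 and 146 for KO2, and with no minimum 179 for KO1 and 185 for KO2. Leaving out 1 library gave 277 to 438 for the mean, 233 to 297 for KO1, 170 to 367 for KO2 and 0 to 5 for KO1 against KO2. With a pseudocount of 0.1 the genes at least 2-fold apart numbered 2350 for BIX in the labelled ATG5 KD, 2123 in Vector, 498 and 266 between the labelled KD and Vector with BIX and in mock, and 2045 between the labelled cGAS KO and WT with BIX. With a minimum of 5 FPKM 562 were apart between the cGAS genotypes in mock. Depth is unknown and each BIX comparison rests on 1 value a group, so no replicate error can be given for it.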
